A study of Mus musculus with 60 samples.

Results

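The expression of 33 neuronal genes was examined in mouse embryonic stem cell (ESC) lines that had been differentiated into neurons with or without induction of an Xist transgene. The genes were a list of axonal cytoskeleton, synaptic vesicle, growth cone, RNA-binding, neurotransmitter and progenitor genes, and 31 of the 33 were listed in at least 1 of the 60 deposited libraries, out of 14383 genes in all. This list and the marker lists below were chosen with earlier results of these data known. Their counts beside the share of all genes are therefore descriptions and not tests. Stmn2, which encodes a microtubule-destabilising protein of growth cones, and Neurod1, a proneural transcription factor, were listed nowhere. The cells were female F1 129/Sv-Cast/Ei hybrids, so that expressed polymorphisms tell the Cast/Ei copy of a gene from the 129/Sv copy. Neuron libraries came from lines 20 and 38, both labelled as carrying the inducible Xist transgene on chromosome 12, and each line gave 1 untreated library and 1 doxycycline-treated library. The study describes its clones with the transgene on chromosome 12 as trisomic for that chromosome, with 2 Cast/Ei copies and 1 129/Sv copy. Neurons were grown on laminin in a medium with retinoic acid for part of the differentiation and were collected at about day 14. The ESC libraries of line 38 (2 untreated and 2 treated with doxycycline for 5 days in 2i and LIF medium) served as the undifferentiated comparison, since line 20 has no ESC library among the samples used here. A further 44 ESC libraries of other clones were used for the range of each gene. The study writes line 38 with the number of clone 55 before it and describes neurons of clones 55 and 292. It places the transgene of clone 55 on the 129/Sv copy of chromosome 12. The labels give lines 20 and 38 and do not say whether line 20 is of the same clone. The p-values below therefore measure the spread between these libraries, in part or wholly pooled over genes, and not between independent clones or animals.

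Neurons carry signals along axons and dendrites built on neuronal tubulin, neurofilaments and microtubule-associated proteins, and release transmitter from synaptic vesicles through SNARE proteins. During development, progenitors that express Nes and Pax6 give rise to cells that first express early markers such as Tubb3 and Dcx, and later the genes of mature synapses. In cells outside the nervous system many of the late genes are held silent by the repressor REST, which binds a sequence known as RE1.

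Promoter sequences from RefSeq (build GRCm38.p6) were found for 23 of the 33 genes, as 35 stretches from 250 bases before to 50 bases after an annotated start. An RE1 core (its letters stand in capitals in the Gad2 sequence below, where any base may fill the CT in its middle), searched on both strands like the other motifs, was present in 2 of these 23 genes, Gad2 and Gria2, and in 0.0592% of all 27025 genes with a promoter in the same table. The GC box GGGCGG was present in 16 of the 23 genes (69.6%) and in 38.2% of all genes. The E-box CAGCTG was found in 4 genes (17.4%, against 18.3% of all), the E-box CAGATG in 6 (26.1%, against 19.2%), the cyclic AMP response element TGACGTCA in 2 (8.7%, against 2.03%) and the TATA box TATAAA in 3 (13%, against 15.7%). These matches describe letters only. The median GC content was 58% over the promoters of the neuronal genes and 52.7% over all 32851 promoters. The 250 bases before the start are shown for the 2 genes with an RE1 core, both late neuronal genes, and for Tubb3, the gene called among the 3 that could be tested between neurons and ESCs, with the matched motifs in capitals. Gad2 lies on the plus strand of chromosome 2 (chr2:22622077-22622326), with the RE1 core 163 to 150 bases before the start and a CAGATG E-box on the other strand. Gria2 lies on the minus strand of chromosome 3 (chr3:80802836-80803085), with the RE1 core on the other strand 170 to 157 bases before the start. Both stretches lie inside the annotated spans of their genes (chr2:22621015-22693877 and chr3:80681450-80804227). The starts used for Gad2 and Gria2 are thus not the outermost ones of these genes. Tubb3 lies on the plus strand of chromosome 8 (chr8:123411303-123411552) and has 2 GC boxes.
Gad2: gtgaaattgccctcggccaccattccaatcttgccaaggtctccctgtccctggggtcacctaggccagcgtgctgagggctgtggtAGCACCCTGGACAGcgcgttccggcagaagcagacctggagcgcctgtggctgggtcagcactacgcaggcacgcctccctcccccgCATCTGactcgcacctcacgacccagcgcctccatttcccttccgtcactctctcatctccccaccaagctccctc
Gria2: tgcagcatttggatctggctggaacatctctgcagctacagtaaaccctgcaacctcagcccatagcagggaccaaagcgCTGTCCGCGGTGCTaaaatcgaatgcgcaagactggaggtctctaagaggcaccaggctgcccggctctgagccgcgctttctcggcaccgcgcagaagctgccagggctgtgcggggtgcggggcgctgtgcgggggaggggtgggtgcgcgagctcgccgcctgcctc
Tubb3: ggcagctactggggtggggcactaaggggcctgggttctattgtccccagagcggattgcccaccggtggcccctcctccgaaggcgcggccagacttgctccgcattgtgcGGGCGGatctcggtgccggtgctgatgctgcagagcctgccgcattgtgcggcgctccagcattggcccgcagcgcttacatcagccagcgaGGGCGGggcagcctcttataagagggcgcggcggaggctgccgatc

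The neuron libraries held between 25057343 and 32336068 HTSeq reads and listed 11818 to 13036 genes. The ESC libraries of line 38 were shallower, with 3493026 to 7159892 reads and 7543 to 8395 genes. The files list a gene only where enough reads covered its polymorphisms, so a gene that is not listed is not known to be at 0. Xist, the induced gene, stood at 597 and 1084 CPM (reads scaled to a library total of 1000000) in the untreated neurons of lines 20 and 38 and at 2331 and 1552 CPM in the treated neurons. In the ESCs of line 38 it was not listed in either untreated library and stood at 638 and 358 CPM in the treated ones.

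The label of differentiated neurons was checked against marker genes, and genes of undifferentiated cells were still present. All 23 pluripotency genes of a marker list were listed in every neuron library. Their summed level was 4924 and 3183 CPM in untreated lines 20 and 38 and 5952 and 4801 CPM in treated lines 20 and 38. In the ESCs of line 38 it was 11401 to 13507 CPM. Pou5f1 stood at 554 to 1066 CPM in neurons and at 1794 to 2436 CPM in ESCs. Of these 23 genes, 15 were lower and 2 higher in neurons (edgeR quasi-likelihood test, Benjamini-Hochberg adjusted p under 0.05), with Nr0b1 and Tcl1 (log2 change -3.29 each) the most reduced and Lin28a (2.81) and Dnmt3l (1.06) the increased ones. Mki67, a marker of dividing cells, was at 373 to 525 CPM in neurons and 168 to 314 CPM in ESCs. Markers of undifferentiated and of dividing cells were thus measured beside the neuronal genes, and their part in the differences below was not tested. In bulk RNA, fewer cells of a type and less RNA per cell cannot be told apart.

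The untreated line 38 library stood apart from the other 3 neuron libraries. It listed 31 neuronal genes, against 24 in untreated line 20, 18 in treated line 20 and 19 in treated line 38. Their summed level was 3172 CPM in untreated line 38, 826 CPM in untreated line 20, 631 CPM in treated line 20 and 528 CPM in treated line 38. In the ESCs of line 38, 6 to 8 of the genes were listed, with summed levels of 204 to 277 CPM, and over all 48 ESC libraries 3 to 16 were listed. All 4 neuron libraries listed 18 of the 33 neuronal genes, whereas 78.5% of the 14383 genes were listed in all 4, and 9 of the 33 were listed in all 4 neuron libraries and in no ESC 38 library (16.3% of the 14383 genes). Of the 18 genes, 17 were highest in untreated line 38, a pattern shown by 33.7% of the 11292 genes listed in these libraries, and 14 were there at least 2 times the next library (4.22% of all genes). Some genes of other cell types were also highest there. Of 9 astrocyte genes, 8 were listed in untreated line 38 and 5 in each of the other neuron libraries. Their summed level was 895 CPM against 427 to 473 CPM. Gfap (66.2 CPM), Aqp4 (10.7 CPM) and Slc1a2 (51.95 CPM) were listed there and in no other neuron library. Slc1a3, Aldh1l1 and Aldoc were also highest there. Gja1 (209 CPM against 191 to 243 CPM) and Glul (225 CPM against 156 to 227 CPM) were not, and S100b was listed in no neuron library. Of 10 mesenchymal genes, 9 were listed in untreated line 38 and 5 to 7 in the others, with a summed level of 737 CPM against 248 to 498 CPM. Among those listed in untreated line 38, Tagln was lowest there (93.8 CPM against 105 to 206 CPM) and the others highest. Of 9 oligodendrocyte genes, 6 were listed there and 4 in each of the others (94.1 CPM against 53.5 to 93.1 CPM, close to treated line 38), and Sox10 in none. Other lists did not follow this order. Endoderm and epithelial genes summed to 2607 CPM in treated line 38, above 1633 CPM in untreated line 38 and 1277 and 1228 CPM in untreated and treated line 20. Blood and endothelial genes (52.5 CPM against 65.6 to 81.2 CPM) and muscle and heart genes (12.2 CPM against 19.8 to 26.7 CPM) were lowest in untreated line 38. So were the pluripotency genes (3183 CPM against 4801 to 5952 CPM). The part of these cell types in the values below was not tested.

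**Figure D1:**
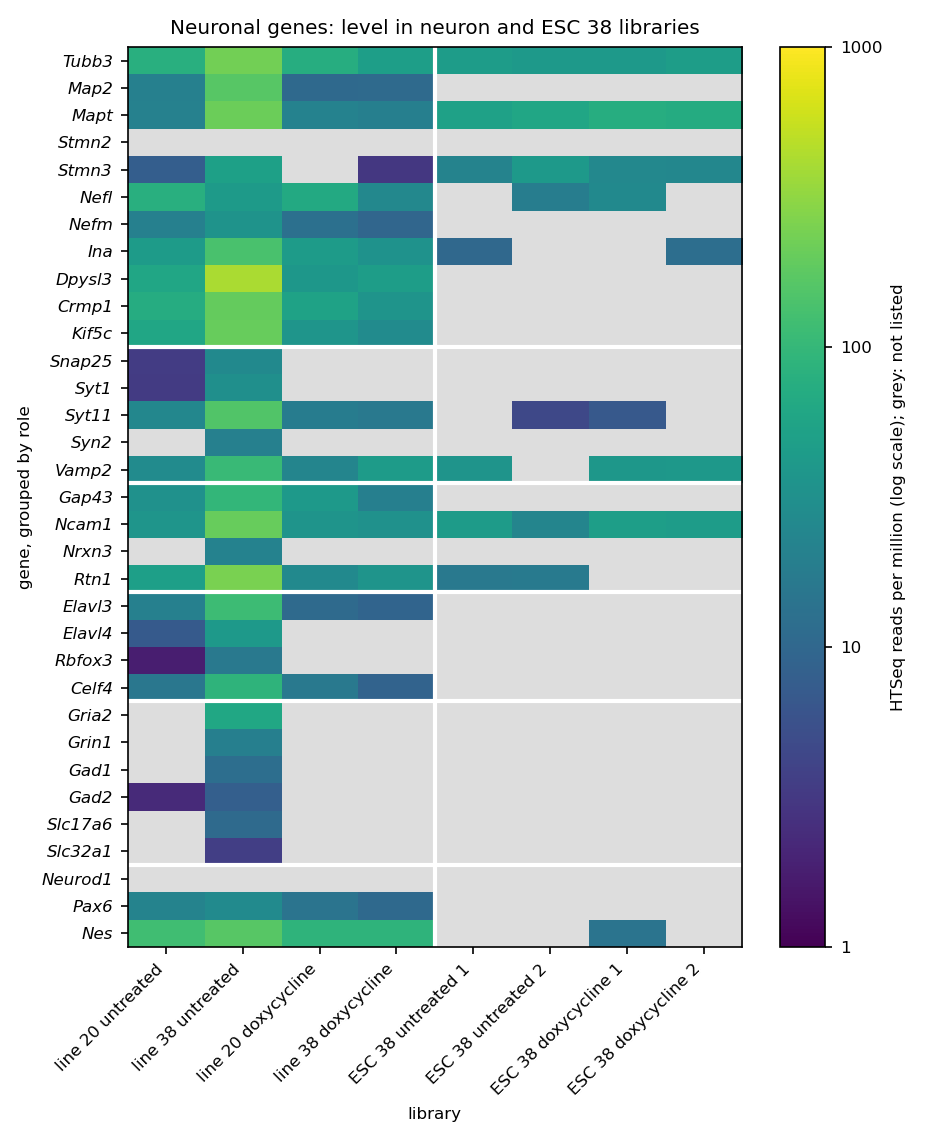
Level of the 33 neuronal genes (rows, grouped by role) in the 4 neuron and 4 ESC 38 libraries (columns), as HTSeq reads in CPM on a logarithmic colour scale, with grey for genes not listed. Untreated line 38 lists 31 genes, more than any of the other 7 libraries, and the ESC columns list 6 to 8.

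The level of each cytoskeletal gene was compared over the 4 neuron libraries, given here in the order untreated line 20, untreated line 38, treated line 20 and treated line 38. Tubb3, the neuronal beta-tubulin, stood at 79.0, 228, 73.1 and 47.6 CPM. Map2, which binds dendritic microtubules, stood at 20.2, 167, 10.6 and 10.98 CPM. Mapt, the axonal tau protein, stood at 21.0, 209, 21.2 and 19.9 CPM. For all 3, untreated line 38 was the high library, and for Mapt the other libraries were nearly level. The neurofilament genes differed in pattern. Nefm, the medium subunit, stood at 20.0, 35.1, 12.9 and 9.87 CPM, and Ina, the internexin that assembles with it, at 44.2, 139, 44.0 and 34.1 CPM. Nefl, the light subunit, stood at 77.1, 43.1, 65.8 and 25.1 CPM, and was the gene of the 18 that was highest in untreated line 20 and not in untreated line 38.

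Dpysl3 and Crmp1 encode collapsin response mediators that act in axon guidance, and Kif5c encodes a kinesin heavy chain for axonal transport. Dpysl3 stood at 59.9, 416, 38.3 and 47.3 CPM. Crmp1 stood at 71.1, 198, 53.1 and 35.3 CPM, and Kif5c at 60.4, 202, 36.2 and 27.9 CPM. In each, untreated line 38 was at least 2 times above the next library, and untreated line 20 was above both treated libraries. Stmn3, a relative of Stmn2, was listed in 3 neuron libraries, at 7.85 CPM in untreated line 20, 50.8 CPM in untreated line 38 and 3.09 CPM in treated line 38.

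Among genes of synaptic vesicle release, 2 of 5 were listed in all neuron libraries. Vamp2, the vesicle SNARE, stood at 28.1, 108, 23.4 and 44.4 CPM, and Syt11, a synaptotagmin, at 24.4, 155, 18.3 and 16.4 CPM. Snap25, a SNARE of the plasma membrane, was listed in the untreated libraries at 3.37 and 26.8 CPM, and Syt1, the calcium sensor of release, at 3.33 and 31.6 CPM, each higher in line 38. Syn2, which tethers vesicles, was listed in untreated line 38 alone among neuron libraries, at 20.5 CPM.

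Growth cone and membrane genes were also highest in untreated line 38. Gap43, the growth-associated protein, stood at 32.9, 96.1, 40.5 and 20.0 CPM. Ncam1, the neural cell adhesion molecule, stood at 36.4, 200, 35.9 and 32.97 CPM, so that 3 libraries lay close together below untreated line 38. Rtn1, a reticulon of the endoplasmic reticulum, stood at 49.3, 251, 26.7 and 35.4 CPM. Nrxn3, a presynaptic adhesion gene, was listed in untreated line 38 alone, at 21.3 CPM.

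Among the neuronal RNA-binding proteins, Elavl3 stood at 20.0, 115, 10.97 and 9.15 CPM, and Celf4, a translation regulator, at 15.5, 88.7, 16.5 and 9.06 CPM. Elavl4 was listed in the untreated libraries at 7.11 and 42.3 CPM, and Rbfox3, the splicing regulator detected as NeuN, at 1.78 and 16.3 CPM. Of the 6 transmitter genes, 5 were listed in untreated line 38 and in no other neuron library. Gria2, an AMPA receptor subunit, stood there at 62.0 CPM and Grin1, an NMDA receptor subunit, at 19.9 CPM. Gad1, which makes GABA, stood at 12.0 CPM, Slc17a6, a vesicular glutamate transporter, at 10.8 CPM and Slc32a1, the vesicular GABA transporter, at 3.57 CPM. Gad2, the other enzyme of GABA synthesis, was listed in both untreated libraries, at 2.26 CPM in line 20 and 8.12 CPM in line 38.

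The progenitor genes varied least. Nes, the intermediate filament of neural progenitors, stood at 119, 167, 89.4 and 88.6 CPM, and Pax6, a transcription factor of radial glia, at 22.1, 27.1, 14.1 and 10.7 CPM. Untreated line 38 exceeded the next library 1.41 times for Nes and 1.22 times for Pax6, against 9.89 times for Mapt and 8.25 times for Map2. In all, 7 genes were listed in untreated line 38 and in no other neuron library, and 5 more in both untreated libraries and in neither treated one. Over all 14383 genes the shares with these patterns were 4.1% and 1.43%.

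**Figure D2:**
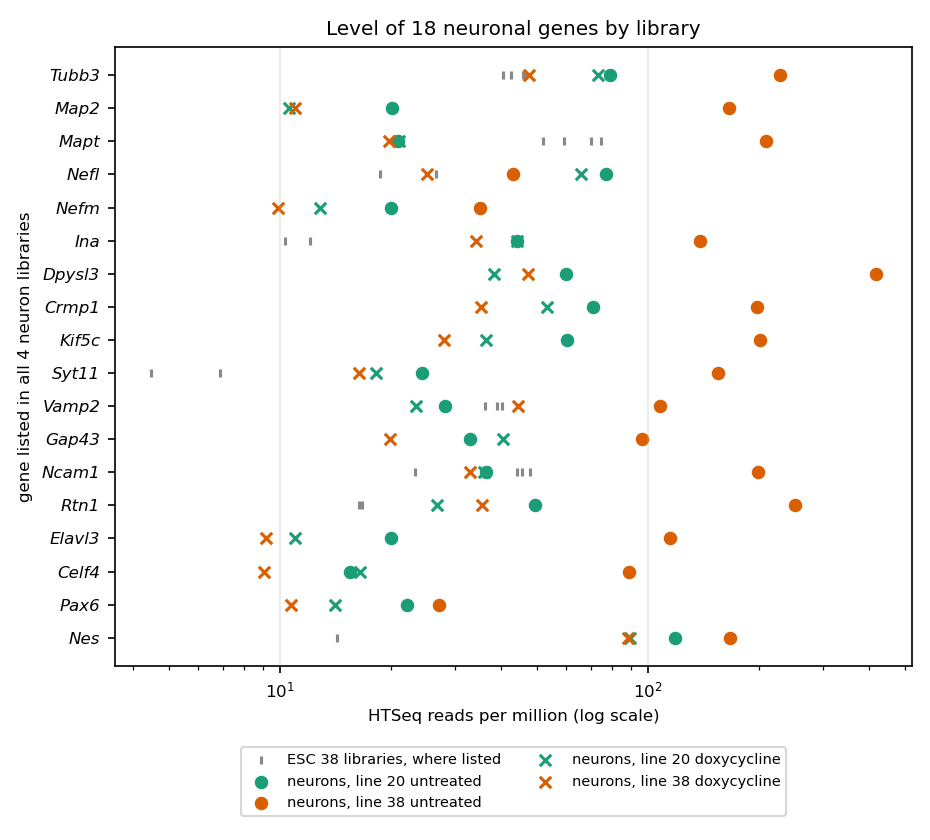
Level of the 18 neuronal genes listed in all 4 neuron libraries, as HTSeq reads in CPM on a logarithmic axis, with 1 point per library and grey ticks for the ESC 38 libraries in which the gene was listed. The orange circles (untreated line 38) lie at the right for every gene but Nefl, and Mapt in 4 and Ncam1 in 3 ESC libraries lie above the other 3 neuron libraries.

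Levels were also set per kilobase of exon to compare genes with each other. On this scale Tubb3 was the highest of the 18 genes in each of the 4 neuron libraries, at 45.5, 131, 42.0 and 27.4 CPM per kb in the same order. Gap43 came next in 3 of them (25.1, 73.4 and 30.9 CPM per kb), and Vamp2 in treated line 38 (20.5 CPM per kb). Map2 was the lowest of the 18 in the 3 libraries other than untreated line 38, at 1.06 to 2.01 CPM per kb, while in untreated line 38 the lowest was Pax6 at 5.68 CPM per kb. With 1 library per line and treatment, the order of close neighbours cannot be tested.

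Neurons were compared with ESCs to ask which genes differed after differentiation. A test was possible for 3 of the 33 genes, Tubb3, Mapt and Ncam1, which were listed in all 4 neuron and all 4 ESC 38 libraries. Tubb3 rose by 1.22 ± 0.33 (log2 change ± SE, adjusted p = 0.0237, edgeR quasi-likelihood test with 2 libraries in each of 4 groups). Of all 6777 genes tested, 14.1% were called higher and 16.2% lower. The ESC libraries stood at 45.9, 40.4, 42.4 and 46.7 CPM for Tubb3, and all 4 neuron libraries were above them, as they were for 15.8% of genes, although treated line 38 exceeded the highest ESC library by less than 1 CPM. The call of Tubb3 was lost in 4 of the 8 fits with 1 library left out. Its change was 0.71 (adjusted p = 0.0526) without untreated line 38, 1.05 (0.0693) without treated line 20, 1.18 (0.0667) without the first and 1.27 (0.0691) without the second treated ESC library. With doxycycline libraries only, it was 0.56 (adjusted p = 0.119). Over the ESC libraries of all clones, 46 listed Tubb3, at 11.3 to 104 CPM, a range that holds 3 of the 4 neuron libraries. Tubb3 is encoded at chr8:123411553-123422015.

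Mapt and Ncam1 did not pass the test. Mapt stood at 51.8, 59.4, 74.4 and 70.2 CPM in the ESCs of line 38, above 3 of the neuron libraries and below untreated line 38, and its log2 change was -0.30 ± 0.55 (adjusted p = 0.704). Without untreated line 38 it fell by 1.57 on the log2 scale (adjusted p = 0.00271). Ncam1 stood at 44.1, 23.3, 47.8 and 45.5 CPM in ESCs, with a change of 0.79 ± 0.45 (adjusted p = 0.206). Without untreated line 38 its change was -0.09 (adjusted p = 0.776), whereas without untreated line 20 it rose by 1.18 (adjusted p = 0.00782).

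The other genes have no such test against ESCs. With genes that were not listed counted as 0, 12 of 19 genes were called higher (29.6% of 11465 genes), but such genes could pass the filter through the neuron libraries alone, so the number is a description. Of the 33 genes, 23 were listed in no ESC 38 library and 14 in none of the 48 ESC libraries. The ESC libraries were shallower than the neuron libraries, and the part of depth in this was not tested. Scaled to the shallowest ESC 38 library, the allele-specific reads of untreated line 20, summed over the polymorphisms of a gene, would be 232 for Nes, 162 for Dpysl3, 105 for Kif5c, 5.62 for Elavl3 and 1.40 for Snap25, while the minimum for listing applies to each polymorphism. Nes was listed in 10 of 48 ESC libraries, at 12.1 to 38.7 CPM, below all 4 neuron libraries. Dpysl3 was listed in 6 of them, at 7.42 to 20.9 CPM, and Kif5c in 3, at 10.4 to 12.4 CPM, again below all 4 neuron libraries. Stmn3, in contrast, was listed in 43 ESC libraries at 12.8 to 93.5 CPM, above both 7.85 CPM in untreated line 20 and 3.09 CPM in treated line 38. Vamp2 was listed in 42 ESC libraries at 14.2 to 40.3 CPM, a range that holds both line 20 libraries, and Nefl in 39 at 16.7 to 108 CPM, a range that holds all 4 neuron libraries. Of 50 other neuronal genes on a further list, 4 could be tested, of which Nsf was higher (0.80 ± 0.20, adjusted p = 0.0185) and Thy1 lower (-2.08 ± 0.27, adjusted p = 0.000824) in neurons. Of 13 cholinergic, monoaminergic and glycinergic genes, 1 was tested, and Slc6a9, a glycine transporter, was lower (-1.32 ± 0.29, adjusted p = 0.0109). Of 19 neural progenitor genes, 5 were tested, 3 were higher, led by Sox1 (1.17 ± 0.30, adjusted p = 0.0202) and Mki67 (0.99 ± 0.21, adjusted p = 0.00932), and Sox2 was lower (-0.79 ± 0.15, adjusted p = 0.00615). Of the other cell types, 2 of 3 tested astrocyte genes were higher, Gja1 (1.78 ± 0.16, adjusted p = 0.000183) and Glul (1.19 ± 0.20, adjusted p = 0.00294). Epcam, 1 of 2 tested endoderm and epithelial genes, was higher (0.71 ± 0.19, adjusted p = 0.0245), and Pecam1, the tested blood and endothelial gene, was lower (-0.83 ± 0.20, adjusted p = 0.0162).

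The effect of doxycycline, which induces Xist, was then examined in the neurons. All 18 genes listed in the 4 neuron libraries had lower fitted levels with doxycycline, with log2 changes from -2.46 for Map2 to -0.51 for Nefl and a median of -1.40, against -0.01 over all genes. None was called by edgeR at an adjusted p under 0.05 (lowest 0.729), nor was any of the 11292 genes (0%). At an unadjusted p under 0.05 there were 11 of the 18 and 724 of all genes (6.41%), and DESeq2 called 92 genes, none of them among the 18. Map2 had a change of -2.46 ± 0.79, Elavl3 of -2.28 ± 0.73, Dpysl3 of -1.91 ± 0.64 and Rtn1 of -1.88 ± 0.49. The 34 tested genes among the 50 other neuronal genes had a median change of -0.99, and none was called. The 23 pluripotency genes had a median of 0.59, with 0 called and 13 at an unadjusted p under 0.05.

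The size of the difference depended on the line. In line 38, 18 of 18 genes were lower in the treated library (49.3% of all genes), with a median log2 difference of -2.54, from -3.92 for Map2 to -0.78 for Nefl. In line 20, 15 of 18 were lower (53.5% of all genes), with a median of -0.41, from -0.93 for Map2 to 0.30 for Gap43. Genes lower in both lines numbered 15 of 18 (29.5% of all genes), and in 13 both untreated libraries lay above both treated ones (12.7% of all genes). Each line gave 1 pair of libraries, so the difference between lines was not tested. Untreated line 38 is the library that stood apart above, and without it line 38 has no pair of neuron libraries.

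**Figure D3:**
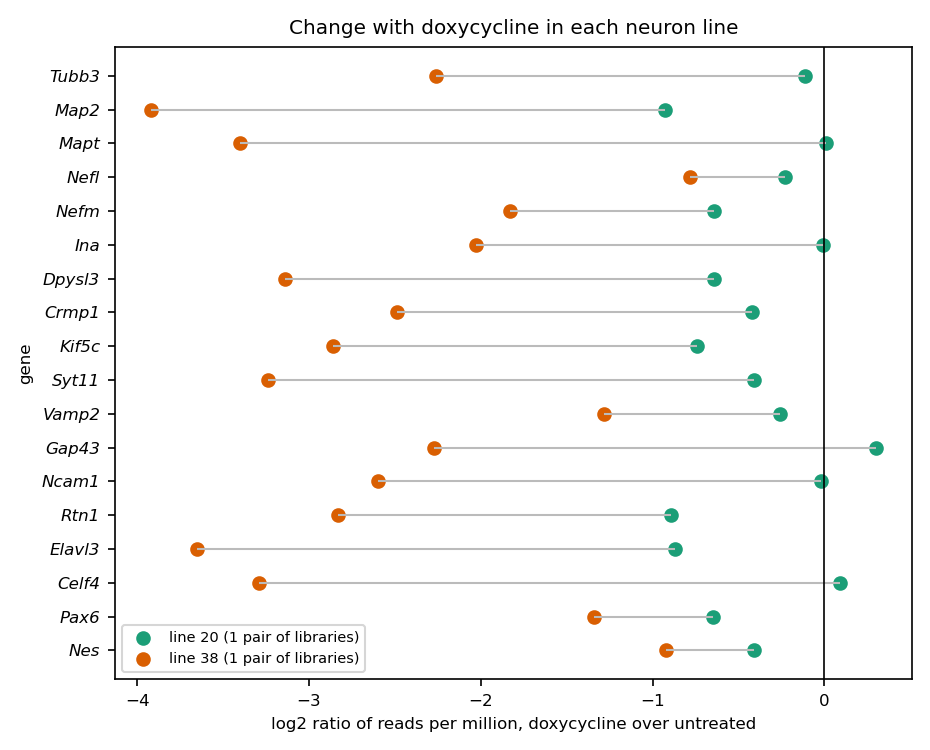
Log2 ratio of the level with doxycycline over the level without it for 18 neuronal genes, with 1 green point for line 20 and 1 orange point for line 38. The orange points lie between -3.92 and -0.78 and the green points between -0.93 and 0.30.

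Whether doxycycline acted differently in neurons and in ESCs could be tested for Tubb3, Mapt and Ncam1. The difference of the 2 treatment effects was -1.12 ± 0.70 for Tubb3, -1.95 ± 1.09 for Mapt and -1.71 ± 0.86 for Ncam1 (edgeR, adjusted p = 0.999 for each), and no gene of 6777 was called, with 92 at an unadjusted p under 0.05 (1.36%) and none of the 3 among them. The 2 lines were compared in the same neuron libraries. Line 38 exceeded line 20 by a median log2 change of 0.78 over the 18 genes, against 0.03 over all genes, with none called by edgeR (0% of all genes) and 3 at an unadjusted p under 0.05 (26.7% of all genes). DESeq2 called 1002 genes, among them Vamp2, higher in line 38 (1.44 ± 0.28 in the edgeR fit, adjusted p = 0.0903), and Nefl, lower (-1.11 ± 0.19, adjusted p = 0.0808). With doxycycline, 14 of the 18 genes were lower in line 38 than in line 20 (50.5% of all genes), with a median log2 difference of -0.32, whereas without it line 38 was higher by a median of 1.84.

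The share of allele-specific reads from the Cast/Ei copy (Cast/all ratio) was compared with 0.5 and with the median of each gene's chromosome, because these lines are not balanced at every chromosome. Of the 18 genes, 5 were called with a ratio above 0.5 (23.2% of 11292 genes were called so) and 5 with a ratio below it (19.4%). Those above were Rtn1 (2.06 on the log2 Cast to 129 scale), Mapt (0.91), Tubb3 (0.88), Nefm (0.77) and Ncam1 (0.44), and those below were Dpysl3 (-0.92), Nefl (-0.56), Ina (-0.44), Gap43 (-0.40) and Vamp2 (-0.40). Without untreated line 38 the calls were those of Dpysl3, Mapt, Rtn1 and Tubb3. Tubb3 had ratios of 0.664, 0.60, 0.667 and 0.665 in untreated line 20, untreated line 38, treated line 20 and treated line 38, close to the chromosome 8 medians of 0.649 to 0.667. Against that median its allelic log2 change was -0.08 ± 0.08 (adjusted p = 0.458), in place of 0.88 ± 0.08 against equal copies. Ina, on chromosome 19 (chr19:47014681-47025327), had ratios of 0.498 and 0.523 in line 20 and of 0.328 and 0.356 in line 38, where the chromosome medians were 0.463 and 0.505, and 0.333 and 0.337. The difference between lines was called for Ina (-1.01 ± 0.12 on the log2 Cast to 129 scale, adjusted p = 5.86e-06, 4.24% of genes called lower in line 38) and not against the chromosome median (-0.12 ± 0.12, adjusted p = 0.978). Rtn1 also differed between the lines (-1.33 ± 0.16, adjusted p = 6.83e-06), and against the chromosome median by -0.62 ± 0.17 (adjusted p = 0.0371).

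Against the chromosome median, 8 of the 18 genes were called (36.9% of all genes). Mapt was higher (1.01 ± 0.09, adjusted p = 7.75e-29), Nefm higher (0.79 ± 0.17, adjusted p = 3.02e-05), Rtn1 higher (0.50 ± 0.09, adjusted p = 1.62e-07, although below the median by 0.030 in untreated line 38) and Ncam1 higher (0.46 ± 0.08, adjusted p = 3.30e-07). Dpysl3 was lower (-0.88 ± 0.05, adjusted p = 3.15e-56), as were Nefl (-0.54 ± 0.17, adjusted p = 0.00586), Crmp1 (-0.19 ± 0.08, adjusted p = 0.0432) and Nes (-0.16 ± 0.06, adjusted p = 0.0166). The p-values of this fit rest almost wholly on a spread pooled over all genes, and not on that of each gene between the 4 libraries. Between libraries the distance from the median ran from -0.071 to -0.208 for Dpysl3 and from 0.063 to 0.292 for Mapt. In all 4 libraries 8 of the 18 genes lay within 0.1 of the chromosome median, as did 63% of all genes. The remaining genes rest on few reads in places, such as 24 allele-specific reads for Elavl3, 32 for Celf4 and 42 for Pax6 in their thinnest library.

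The Cast/all ratio changed with doxycycline in 3 of the 18 genes, 2 towards Cast (1.11% of all genes) and 1 towards 129 (0.124%). Rtn1 lies on chromosome 12, the chromosome of the transgene, at chr12:72211749-72409054. Its ratio was 0.816 (95% Wilson interval 0.783 to 0.845) and 0.630 (0.613 to 0.646) in untreated lines 20 and 38, and 0.905 (0.865 to 0.934) and 0.807 (0.774 to 0.835) in the treated libraries, a change of 1.24 ± 0.16 (adjusted p = 3.78e-05). The chromosome 12 median moved in the same direction, from 0.755 to 0.828 in line 20 and from 0.659 to 0.732 in line 38, and measured against it the change of Rtn1 was 0.71 ± 0.17 (adjusted p = 0.00304). Nrxn3, the other gene on this chromosome, was listed in 1 neuron library only.

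The other 2 genes lie on chromosomes without the transgene. Mapt (chr11:104229409-104332090) had ratios of 0.611 (0.555 to 0.665) and 0.551 (0.533 to 0.569) untreated and of 0.685 (0.623 to 0.740) and 0.758 (0.712 to 0.799) treated in lines 20 and 38, a change of 1.01 ± 0.19 (adjusted p = 0.00331). Dpysl3, on chromosome 18, had ratios of 0.396 (0.370 to 0.423) and 0.430 (0.420 to 0.440) untreated and of 0.286 (0.251 to 0.323) and 0.282 (0.257 to 0.309) treated, a change of -0.84 ± 0.11 (adjusted p = 6.14e-05). DESeq2, with the lines also kept apart, called Dpysl3 and Rtn1 but not Mapt (adjusted p = 0.495). Without the line term edgeR called none of the 3, and leaving out any 1 of the 4 libraries also left none.

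**Figure D4:**
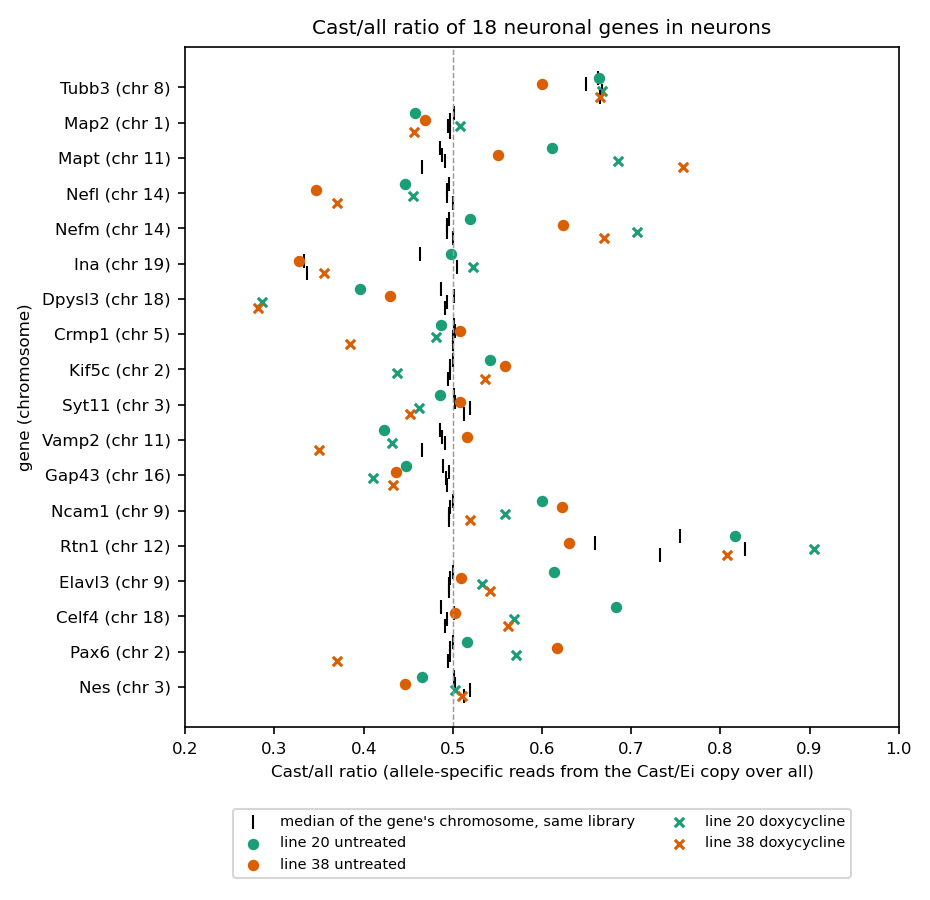
Cast/all ratio of 18 neuronal genes in the 4 neuron libraries (coloured points), with the median ratio of the gene's chromosome in the same library as a black tick and the dashed line at 0.5. Tubb3 (but for untreated line 38) and Ina lie close to their ticks, while Mapt lies to the right of them and Dpysl3 to the left in all 4 libraries.

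The Cast/all ratio of Mapt and Ncam1 was lower in neurons than in ESCs, and that of Tubb3 was not called (0.50 ± 0.23, adjusted p = 0.294), with 2.2% of all genes called lower and 2.3% higher. Mapt had ratios of 0.812, 0.871, 0.823 and 0.797 in the ESCs of line 38, all above the highest neuron library, and fell by 1.33 on the log2 scale in neurons (SE 0.21, adjusted p = 0.00809). Ncam1 (chr9:49502129-49799393) had ratios of 0.805, 0.550, 0.820 and 0.815 in ESCs, on 41, 20, 50 and 81 reads, and 0.519 to 0.622 in neurons, a change of -1.31 ± 0.28 (adjusted p = 0.0303). Neither call was kept in every fit with 1 library left out. The call of Ncam1 was lost without either untreated neuron library, without either treated ESC library and without the first untreated ESC library. The call of Mapt was lost without the second untreated and without the second treated ESC library. The ESC library at 0.550, with a 95% interval of 0.342 to 0.742, overlapped the neurons. Reads that cover several polymorphisms may be counted more than once and no molecular identifiers were used, so the intervals cover counting error only.

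Clone 292, also labelled with the transgene on chromosome 12, has 8 libraries whose titles and cell type labels do not agree on which were differentiated, and they entered no comparison. The 4 titled with the letter N listed 8 to 11 of the neuronal genes, with summed levels of 333 to 403 CPM. The 4 titled without it listed 24 to 28, with summed levels of 762 to 1332 CPM. They held 29557231 to 32224693 reads, inside the range of the neuron libraries (25057343 to 32336068). Those with the letter held 4611498 to 8560421, inside that of the 48 ESC libraries (2284822 to 20637905). Pluripotency genes summed to 5995 to 8728 CPM without the letter, above the neuron libraries (3183 to 5952 CPM). With it they summed to 10982 to 11533 CPM, near the ESCs of line 38 (11401 to 13507 CPM). Which set was differentiated was not tested. Tubb3 ranged from 89.7 to 151 CPM, Mapt from 58.0 to 71.0 CPM and Ncam1 from 44.1 to 82.4 CPM over the 8 libraries.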

How the data were processed

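RNA-seq of 60 libraries (single reads of 43 bp) was deposited by the authors as 1 table per library. Per the labels and the study's methods, reads were aligned with TopHat2 2.0.6 to 129/Sv and Cast/Ei genomes made from the mm10 build, the best unique alignment was kept, and counted per gene with HTSeq 0.6.1. The tables hold the deposited whole-number counts (HTSeq counts and Cast and 129 allele-specific counts) and the Cast/all fraction, for genes with polymorphisms covered by at least 5 reads (8 where a gene has 1 polymorphism). Levels were computed as HTSeq reads scaled to a library total of 1000000 over the listed genes (CPM). edgeR 4.0.16 (quasi-likelihood, TMM) was fitted to all genes listed in every library compared, and p-values were adjusted over all of them by the Benjamini-Hochberg method at 0.05. Neurons against ESCs used 4 groups of 2 libraries, and doxycycline in neurons used line and treatment terms, because libraries of a line share cells (correlation of the line 20 minus line 38 differences between treatments 0.634). Allele counts were fitted with library, allele, allele by treatment and allele by line terms. SEs were derived from the log2 change and the F statistic. DESeq2 1.42.0, other scalings, filters, replicate terms and each left-out library were alternatives. Some of the fits were also run on simulated counts with known changes, an assumed spread and no difference between lines. That run checked the code and not how the fits do at the spread of these libraries. The 33 genes and the marker lists were chosen with earlier results of these data known. All 33 were accounted for, and from the other lists the 2 genes with the largest called change in each direction were named. Motifs were searched in RefSeq promoters. The TruSeq RNA kit does not mark strand, so reads of genes that overlap on opposite strands cannot be told apart.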

Additional observations from a re-analysis of the deposited data

Results flagged for a closer look

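In 3 neuronal genes the doxycycline libraries differed in opposite directions from the untreated ones in the 2 lines. Mapt differed by 0.01 (log2, doxycycline minus untreated) in line 20 and by -3.40 in line 38. Gap43 differed by 0.30 in line 20 and by -2.27 in line 38, and Celf4 by 0.09 in line 20 and by -3.29 in line 38. Each line has 1 library per treatment, so the difference between the lines was not tested, and the line 20 values for Mapt and Celf4 are close to no change.

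Data outside the comparisons also held neuronal genes. In 4 of the 8 libraries of clone 292, more of the genes were listed than in any of the 48 ESC libraries, where the highest number was 16. The untreated libraries titled as replicates 1 and 2 without the letter N listed 26 and 28 genes, and the treated ones listed 24 each. All 8 libraries of this clone are labelled as undifferentiated ESCs, and the other 4 have the letter N in their titles.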

How the results depend on the processing

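Alternatives moved several counts of calls, and why they moved was not tested. Some alternatives also entered fewer libraries or more genes. With genes not listed counted as 0, a gene could pass the filter through the neuron libraries alone, so those counts are descriptions. Of all 11465 genes in that fit, 29.6% were called higher. In neurons against ESCs, 1 neuronal gene was called, against 12 with genes not listed counted as 0, 0 with all ESC libraries (where Mapt alone was tested), 2 with line 38 neurons only, 3 with untreated libraries only and 0 to 2 with 1 library left out. Over all genes 2051 were called, against 4375 with genes not listed counted as 0, 810 with line 38 neurons only, 922 with untreated libraries only and 834 to 3319 with 1 library left out. The log2 change of Mapt reversed to 0.12 with line 38 neurons only and 1.07 with untreated libraries only, and spanned -1.57 to 0.14 with 1 library left out. Ncam1 reversed to -0.31 with doxycycline libraries only and spanned -0.09 to 1.18. For doxycycline in neurons DESeq2 called 92 genes in place of 0, none of them among the neuronal genes, and with 1 library left out Mapt spanned -3.45 to 0.04 and Ncam1 -2.65 to 0.01, the upper values without either line 38 library. These left-out fits took their spread from the ESC libraries and so cover 3 of the neuronal genes. For line 38 against line 20, 0 neuronal genes became 2 with DESeq2 and 1 with a mean HTSeq count of at least 100, and 0 genes overall became 44 with library totals alone, 52 with RLE, 1002 with DESeq2, 350 with the count minimum and 3 with the ESC libraries in the fit. Without either untreated library, Tubb3 (-0.61), Mapt (-0.08) and Ncam1 (-0.11) reversed, and their highest values were 1.62, 3.41 and 2.54. For allele imbalance, 10 neuronal genes became 6 with DESeq2 and 4 to 6 with 1 library left out, and 4807 genes overall became 2429 and 2338 to 2868. Against the chromosome median Tubb3 (-0.08) and Ina (0.09) reversed. For doxycycline and allele share, 139 genes became 35 with DESeq2 and 0 to 19 with 1 library left out, and the 3 neuronal genes became 0 in each of these left-out fits. For the allele share of neurons against ESCs, 2 neuronal genes became 0 to 2, and 305 genes overall became 123 to 365, with 1 library left out. Where a group was left with 1 library, its spread was taken from the other groups.

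The replicate block kept libraries of a line or ESC replicate number together. With it, 3642 genes were called in neurons against ESCs and 631 for their allele share. With no replicate block, the doxycycline effect on allele share was called for 0 of the neuronal genes and for 1 gene in all.

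Each line and treatment has 1 neuron library, line 20 has no ESC library here, and the ESC libraries are shallower, and 3 of the 33 genes were tested against ESCs with all 8 libraries, against 4 or 5 with subsets of them. A gene not listed is not known to be at 0. Shares with few allele-specific reads have wide intervals.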

Other observations

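The 8 libraries of clone 292 fell into 2 sets. Those titled without the letter N listed 26 and 28 neuronal genes untreated and 24 and 24 with doxycycline, with summed levels of 1332, 1320, 894 and 762 CPM and 29557231 to 32224693 reads. Those titled with the letter N listed 10 and 8 genes untreated and 8 and 11 with doxycycline, with summed levels of 403, 352, 333 and 382 CPM and 4611498 to 8560421 reads. The Cast/all ratio of Mapt in untreated libraries was 0.619 and 0.575 in the first set and 0.783 and 0.801 in the second. The 23 pluripotency genes summed to 6002, 5995, 7655 and 8728 CPM in the first set and to 11477, 11282, 11533 and 10982 CPM in the second. All 8 libraries are labelled as undifferentiated ESCs.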
